A study of Mus musculus with 6 samples.

Results

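The genes described here are 42 regulators of the cell division cycle, taken by symbol from a count table of 55401 mouse genes. They fall into 21 regulators of G1, 8 genes of replication licensing, 4 genes of the S and M phase cyclins and their kinase Cdk1, and 9 genes of the mitotic kinases and the spindle checkpoint. The libraries came from V6.5 mouse embryonic stem cells, a pluripotent line from hybrid mouse embryos. One group was wild type (WT), and the other had the genotype Cdh1-/-, a knockout of the gene of the adhesion protein E-cadherin. Each group had 3 libraries with the letters A, B and C. The labels do not say how the gene was disrupted, whether the knockout cells are 1 clone, or whether the 3 libraries of a group are separate cultures, so p-values measure the spread between these libraries, which may be technical. The title of the series concerns E-cadherin and the stability and activity of beta-catenin, and Ccnd1 and Myc are textbook targets of beta-catenin with TCF factors.

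A cell enters the cycle when D-type cyclins with Cdk4 or Cdk6, and then E-type cyclins with Cdk2, phosphorylate the retinoblastoma proteins and release E2F factors. E2F switches on the genes that load the Mcm helicase onto replication origins, and later in the cycle Cdk1 with B-type cyclins, the Aurora and Polo kinases and the spindle checkpoint carry the cell through mitosis. Embryonic stem cells are known for a short G1 and for weak dependence on the D-type cyclin step. In RNA from a whole culture, fewer cells of a type or phase and less RNA per cell cannot be told apart.

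All 42 genes had enough counts to be tested. Between the genotypes 7 of the 42 were called (16.7%), 3 higher and 4 lower in the knockout, where a call is an adjusted p under 0.05 in edgeR's quasi-likelihood test with Benjamini-Hochberg adjustment over all 17325 tested genes. Over all tested genes 13.3% were called, 7.60% higher and 5.71% lower. Of the 21 G1 regulators 3 rose and 2 fell. The higher genes were Ccnd3, E2f2 and Rb1, and the lower genes were Cdkn2a, Cdk6, Mcm3 and Mcm6. The libraries of the groups did not overlap for 10 of the 42 genes (23.8%), against 30.7% of all tested genes. The median log2 fold change (knockout over WT) was -0.02 over the 42 genes and -0.01 over all tested genes. So the share called was near the background. The calls lay in the G1 and licensing genes, with 0 among the 13 genes of S phase, mitosis and the checkpoint. These 13 also had 0 calls under DESeq2 and limma-voom. At an unadjusted p under 0.05 in edgeR's test they had 0, against 4622 of all 17325 tested genes. Whether the roles differ in their share of calls was not tested.

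**Figure D1:**
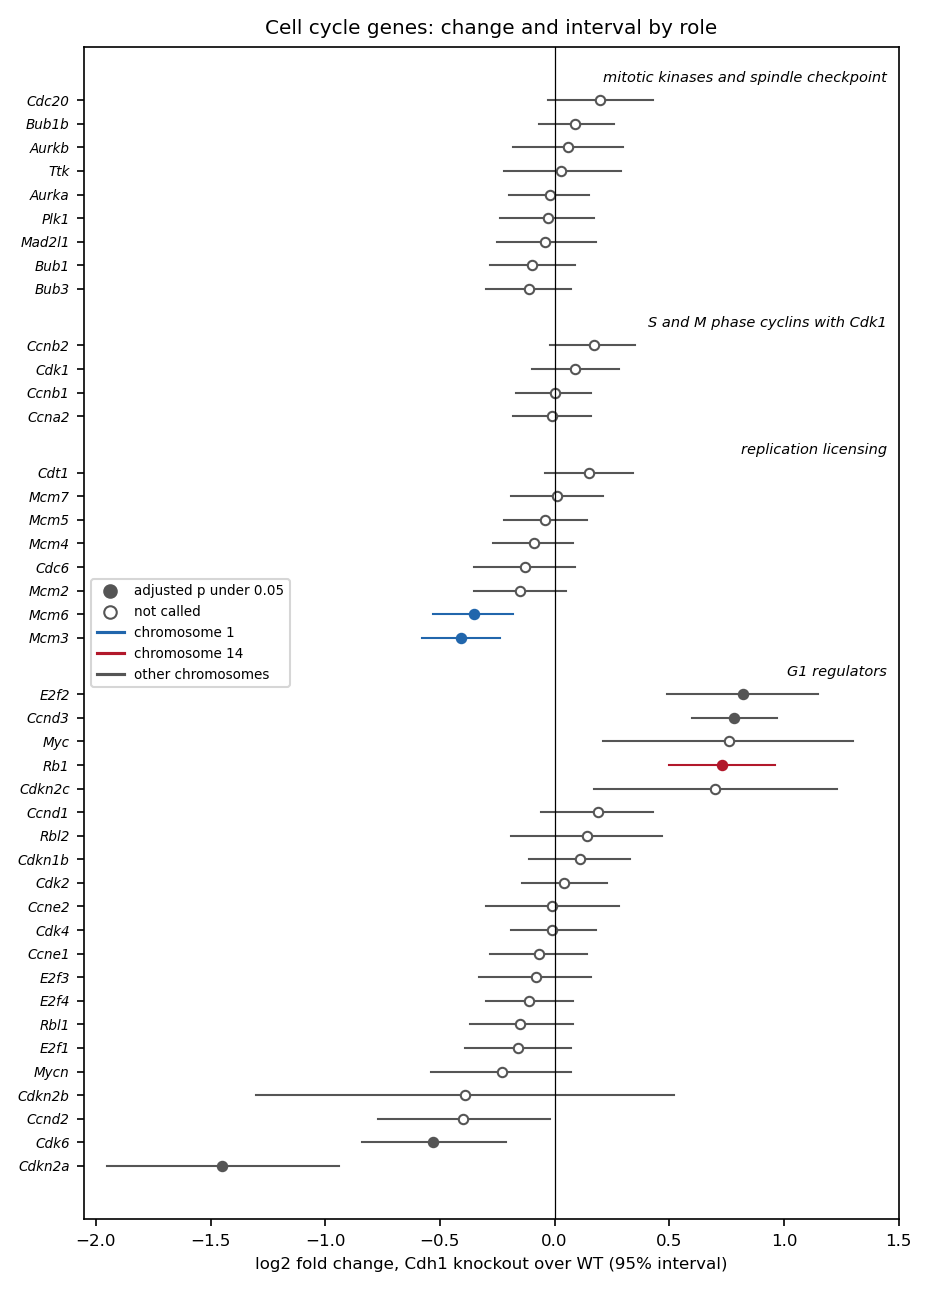
Log2 fold change of each gene (knockout over WT, x axis) with its 95% interval, grouped by role. Filled points passed an adjusted p of 0.05, and colour marks chromosomes 1 and 14. The 13 mitotic and S/M phase genes sit between -0.11 and 0.20, while the G1 genes spread from -1.45 to 0.82.

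The libraries held between 18020719 and 23381942 counts, and the 42 genes took between 0.698% and 0.756% of a library. Cdh1 itself was counted at 537 CPM to 571 CPM in WT and at 166 CPM to 183 CPM in the knockout, where CPM is the count scaled to library size with TMM factors (log2 fold change -1.70, adjusted p 2.9e-08). The count of Cdh1 is summed over all its exons. The 10 listed stem cell markers summed to 5144 CPM to 5609 CPM in WT and to 5724 CPM to 6937 CPM in the knockout, so the labelled cell type was present in all 6 libraries. The ranges did not overlap. Of the 10 markers 2 were called higher and 0 lower. They were Tdgf1 (log2 fold change 0.63, adjusted p 0.000175) and Fgf4 (0.29, adjusted p 0.0352). Of the 8 listed neural markers 6 were tested, with 1 called higher and 3 lower, and their sums were 171 CPM to 207 CPM in WT and 127 CPM to 173 CPM in the knockout. On the second principal component knockout replicate A had a value of 21.5, while B and C had -7.38 and -10.9. Median log2 fold changes were -0.33 over genes of chromosome 1 and 0.53 over genes of chromosome 14, against 0.00 over the genes outside these chromosomes. Of the 42 genes, Mcm3 and Mcm6 lie on chromosome 1 and Rb1 on chromosome 14.

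Among the D-type cyclins, which start the G1 step, Ccnd3 rose in the knockout and took a larger share of the family. Ccnd3 (ENSMUSG00000034165.16, chromosome 17, 47505051 to 47599691, plus strand, GRCm38) was counted at 139 CPM, 150 CPM and 144 CPM in the WT libraries (A, B, C in this order throughout) and at 227 CPM, 257 CPM and 262 CPM in those of the knockout. All knockout libraries lay above all WT libraries. The change was 1.72-fold (log2 fold change 0.78, standard error 0.09, 95% interval 0.60 to 0.97, adjusted p 3.8e-05 in edgeR's test). It was called in all 17 alternative settings, with log2 fold changes from 0.75 to 0.85. Of its exon bases 14.8% lie under Bysl on the opposite strand. Whether strand was used in counting is not given in the sources used here.

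Ccnd1, a cyclin known as a target of beta-catenin, was at 77.2 CPM, 73.1 CPM and 69.8 CPM in WT and at 67.9 CPM, 95.1 CPM and 87.1 CPM in the knockout. The groups overlapped because knockout replicate A was the lowest of all 6 libraries while B and C were the highest. Its log2 fold change was 0.19 (95% interval -0.06 to 0.43, adjusted p 0.336), and without knockout replicate A it was 0.31 (adjusted p 0.0322). Of the exon bases of Ccnd1, 21.9% lie under LTO1 on the opposite strand. Ccnd2 was at 22.5 CPM, 23.7 CPM and 14.3 CPM in WT and between 14.2 CPM and 15.9 CPM in the knockout. WT replicate C lay with the knockout libraries, and the log2 fold change of -0.40 (adjusted p 0.163) was -0.58 (adjusted p 0.0235) without it.

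Levels of different genes were compared per exon length, as TPM, the count over exon length scaled to the same total in every library. In WT the order was Ccnd3 at 149 ± 6.62 TPM, Ccnd1 at 49.4 ± 3.84 TPM and Ccnd2 at 7.59 ± 2.1 TPM (SD, n = 3), and these ranges did not overlap. In the knockout the levels were 249 ± 18.3 TPM, 54.6 ± 9.06 TPM and 5.60 ± 0.368 TPM in the same order. Ccnd3 held 70.3%, 72.7% and 74.0% of the TPM of the D-type cyclins in the WT libraries and 81.8%, 79.2% and 80.7% in the knockout libraries. The difference of 8.28 percentage points did not overlap between groups, and the two-sided exact permutation test gave p = 0.1, the smallest that 3 against 3 libraries allow (adjusted p 0.117 over 7 ratios). The share of Ccnd1 was 24.0 ± 1.34% in WT and 17.6 ± 1.56% in the knockout, with the same exact p.

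Of the kinases that pair with these cyclins, Cdk6 fell and Cdk4 and Cdk2 were not called. Cdk6 (ENSMUSG00000040274.11, chromosome 5, 3343893 to 3531008, plus strand) was counted at 25.5 CPM, 28.1 CPM and 23.4 CPM in WT and at 17.3 CPM, 21.3 CPM and 14.7 CPM in the knockout. The groups were apart by a gap between 21.3 CPM and 23.4 CPM. The log2 fold change was -0.53 (standard error 0.15, 95% interval -0.84 to -0.21, adjusted p 0.0277 in edgeR's test). This call was lost without WT replicate A (adjusted p 0.0908), without WT replicate B (0.132) and without knockout replicate C (0.133).

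Cdk4 stood at 432 ± 14.5 TPM in WT and 418 ± 33.5 TPM in the knockout, so that Cdk6 made up 1.29 ± 0.186% of the TPM of the 2 kinases in WT and 0.895 ± 0.139% in the knockout (exact permutation p = 0.1, the smallest possible, n = 3). The log2 fold change of Cdk4 was -0.01 with a 95% interval of -0.19 to 0.18. Of its exon bases 31.2% lie under Tspan31 on the opposite strand. Cdk2, the partner of the E-type cyclins, had a log2 fold change of 0.04 (-0.14 to 0.23). The cyclins themselves were Ccne1 with -0.07 (-0.28 to 0.14) and Ccne2 with -0.01 (-0.30 to 0.28).

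**Figure D2:**
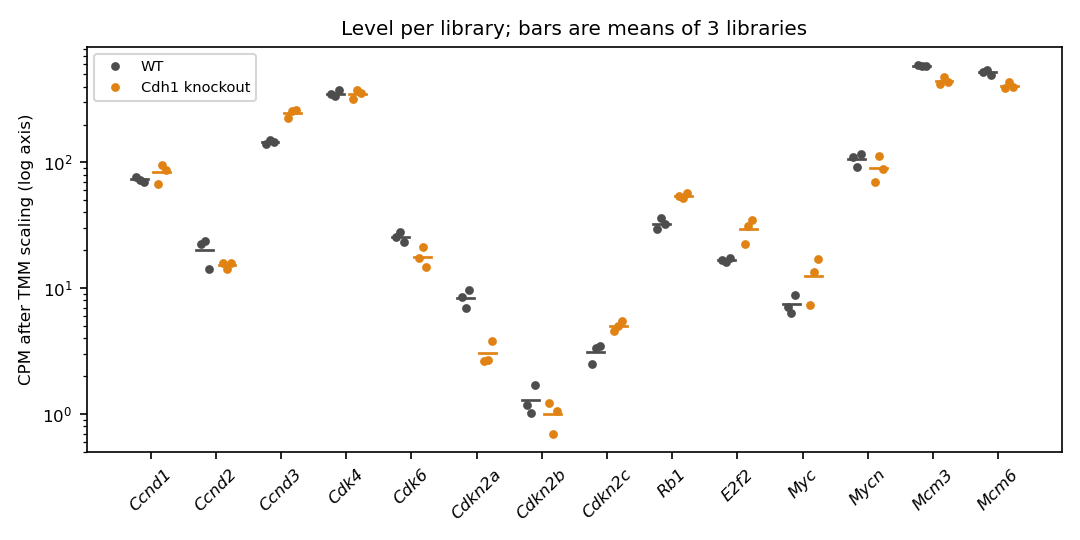
CPM per library (log axis) of 14 genes, with WT in grey and the knockout in orange, and bars at the mean of 3 libraries. Ccnd3, Rb1 and E2f2 are higher and Cdk6, Cdkn2a, Mcm3 and Mcm6 lower in all knockout libraries, and knockout replicate A, the leftmost orange point, lies low for Ccnd1 and Myc.

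Of the 4 inhibitors of cyclin-dependent kinases on the list, Cdkn2a fell and the others were not called. Cdkn2a encodes the Ink4a inhibitor of Cdk4 and Cdk6 and, from a separate first exon, the p53 activator Arf. It had the lowest log2 fold change of the 42 genes. Cdkn2a (ENSMUSG00000044303.6, chromosome 4, 89274471 to 89294653, minus strand) was counted at 8.46 CPM, 6.92 CPM and 9.70 CPM in WT and at 2.65 CPM, 2.71 CPM and 3.83 CPM in the knockout. Every knockout library lay under every WT library, and the knockout mean was 0.367 of the WT mean by the fitted fold (log2 fold change -1.45, standard error 0.24, 95% interval -1.95 to -0.94, adjusted p 0.000858). It was called in all 17 alternative settings, between -1.63 and -1.32.

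The count of Cdkn2a adds the transcripts of both starts, which RefSeq places in GRCm38 at these windows, from 250 bases before to 50 bases after each start on the minus strand. The motif was searched as TTGGCGC and as its variants, namely TTCCCGC, then also TTGCCGC, and finally TTCGCGC. The windows are shown because the count cannot tell them apart. Capitals mark a match to an E2F core motif on either strand, which was present in the upstream window and not in the downstream one.
Cdkn2a upstream start, chr4:89294570-89294869: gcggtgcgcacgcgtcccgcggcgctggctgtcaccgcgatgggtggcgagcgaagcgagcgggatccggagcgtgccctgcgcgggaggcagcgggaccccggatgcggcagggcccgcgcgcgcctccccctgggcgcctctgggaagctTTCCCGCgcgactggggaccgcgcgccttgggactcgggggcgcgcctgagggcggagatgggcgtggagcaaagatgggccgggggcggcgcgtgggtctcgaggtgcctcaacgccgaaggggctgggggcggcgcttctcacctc
Cdkn2a downstream start, chr4:89282143-89282442: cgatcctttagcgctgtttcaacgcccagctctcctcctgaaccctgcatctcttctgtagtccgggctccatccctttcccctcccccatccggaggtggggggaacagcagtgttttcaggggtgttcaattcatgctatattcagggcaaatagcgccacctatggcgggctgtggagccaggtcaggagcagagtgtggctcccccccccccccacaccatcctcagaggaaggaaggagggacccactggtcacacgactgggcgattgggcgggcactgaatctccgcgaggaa

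Fibroblasts express Cdkn2a in culture, so fibroblast markers were read beside it. The 12 listed markers summed to 46.5 CPM to 67.6 CPM in WT and to 41.8 CPM to 56.8 CPM in the knockout, and these ranges overlapped. Of the 12, Fap and S100a4 were at 0 in all libraries, and Dcn reached 0.810 CPM at most. Of the 6 tested Col1a1 alone was called, with a log2 fold change of -1.48 (adjusted p 0.000912). The collagens Col3a1 (-1.49, adjusted p 0.339) and Col1a2 (-0.82, adjusted p 0.467) were also lower but not called. Both were highest in the A library of each group. In the knockout Col3a1 was at 2.32 CPM, 0.0874 CPM and 0.101 CPM. Col1a2 was at 3.32 CPM, 0.437 CPM and 0.605 CPM there. Each was called in 1 of the 6 fits that left out a library (adjusted p 0.00219 and 0.00993 in edgeR's test). Col5a1 (0.18), Pdgfrb (0.09) and Thy1 (-0.17) changed little, and Col5a1 had the largest WT mean of the 12, at 20.5 CPM. The sum can therefore hide a fall of single markers. The part of such cells in the result for Cdkn2a was not tested.

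The neighbour Cdkn2b, another Ink4 inhibitor, lay between 0.699 CPM and 1.70 CPM over the 6 libraries. Its log2 fold change of -0.39 had a 95% interval of -1.3 to 0.52, so a fall of the size seen for Cdk6 was not detectable at this depth. Cdkn2c, the third Ink4 inhibitor listed, was at 2.52 CPM, 3.33 CPM and 3.45 CPM in WT and at 4.59 CPM, 4.98 CPM and 5.50 CPM in the knockout. Its groups did not overlap, but the log2 fold change of 0.70 (0.17 to 1.23) missed the threshold (adjusted p 0.0805). Cdkn1b, an inhibitor of Cdk2 complexes, had a log2 fold change of 0.11 (-0.11 to 0.33) with WT libraries at 84.4 ± 10.1 CPM and knockout libraries at 91.0 ± 7.14 CPM.

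Of the pocket proteins, which hold E2F in check, Rb1 rose. Rb1 (ENSMUSG00000022105.6, chromosome 14, 73195502 to 73325822, minus strand) was counted at 29.5 CPM, 35.9 CPM and 32.4 CPM in WT and at 53.8 CPM, 51.8 CPM and 56.8 CPM in the knockout. The groups were well apart, with a 1.66-fold change (log2 fold change 0.73, standard error 0.11, 95% interval 0.50 to 0.96, adjusted p 0.000334). Its chromosome shares the direction, since 49.8% of the tested genes of chromosome 14 were called higher and 1.61% lower. After the median of chromosomes 1 and 14 was removed from each library, Rb1 had a log2 fold change of 0.24 and was not called (adjusted p 0.193). In that fit 4 of the 42 genes were called, against 9.87% of all tested genes. The relatives Rbl1 (log2 fold change -0.15, -0.37 to 0.08) and Rbl2 (0.14, -0.19 to 0.47) were not called.

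Among the E2F factors, E2f2, an activator, rose. E2f2 (ENSMUSG00000018983.9, chromosome 4, 136172394 to 136196057, plus strand) was counted at 16.7 CPM, 16.1 CPM and 17.5 CPM in WT and at 22.5 CPM, 31.1 CPM and 35.0 CPM in the knockout. The WT libraries lay close together, and knockout replicate A was the lowest of the knockout libraries but above WT. The log2 fold change was 0.82 (standard error 0.15, 95% interval 0.49 to 1.15, adjusted p 0.00216), and it was called in all 17 alternative settings, between 0.69 and 0.98. The activators E2f1 and E2f3 had log2 fold changes of -0.16 (-0.39 to 0.07) and -0.08 (-0.33 to 0.16). E2f4, which acts mainly as a repressor, had -0.11 (-0.30 to 0.08). By TPM the order in WT was E2f4 at 225 ± 12.9, E2f1 at 69.6 ± 7.04, E2f3 at 24.4 ± 0.367 and E2f2 at 8.88 ± 0.224. In the knockout E2f2 stood at 15.3 ± 3.24 TPM, still under E2f3 at 22.4 ± 3.40 TPM.

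Primitive endoderm markers were higher in the knockout beside these G1 changes. The 10 listed markers summed to 41.6 CPM to 55.4 CPM in WT and to 97.4 CPM to 170 CPM in the knockout. Of the 8 tested, 7 were called higher, and Apoa1 was not (-0.15, adjusted p 0.955). Afp was at or under 6 counts in all libraries. With the medians of chromosomes 1 and 14 removed, Gata4 and Sox7 of chromosome 14 moved from 1.70 to 1.20 and from 2.18 to 1.68. Both were still called, and Sox17 of chromosome 1 moved from 2.15 to 2.45. The part of cells with these markers in the G1 results was not tested.

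Myc and Mycn encode growth regulators of the same family, and in these cells Mycn was the more abundant. Myc was at 7.11 CPM, 6.37 CPM and 8.90 CPM in WT and at 7.30 CPM, 13.5 CPM and 17.0 CPM in the knockout. Knockout replicate A fell within the WT range while B and C lay above it. The log2 fold change of 0.76 (0.21 to 1.3) missed the threshold in edgeR's test (adjusted p 0.0657), passed in DESeq2 (adjusted p 0.0290), and was 1.03 without knockout replicate A (adjusted p 0.000683). Over the alternatives its adjusted p ranged from 0.000683 to 0.298.

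Mycn was at 110 CPM, 92.6 CPM and 117 CPM in WT and at 70.2 CPM, 113 CPM and 88.3 CPM in the knockout, with a log2 fold change of -0.23 (-0.54 to 0.07). Myc made up 6.92%, 7.30% and 8.01% of the TPM of both in WT and 10.6%, 12.0% and 18% in the knockout. These shares did not overlap, also for knockout replicate A, where Mycn was lowest (exact permutation p = 0.1, the smallest possible, n = 3).

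**Figure D3:**
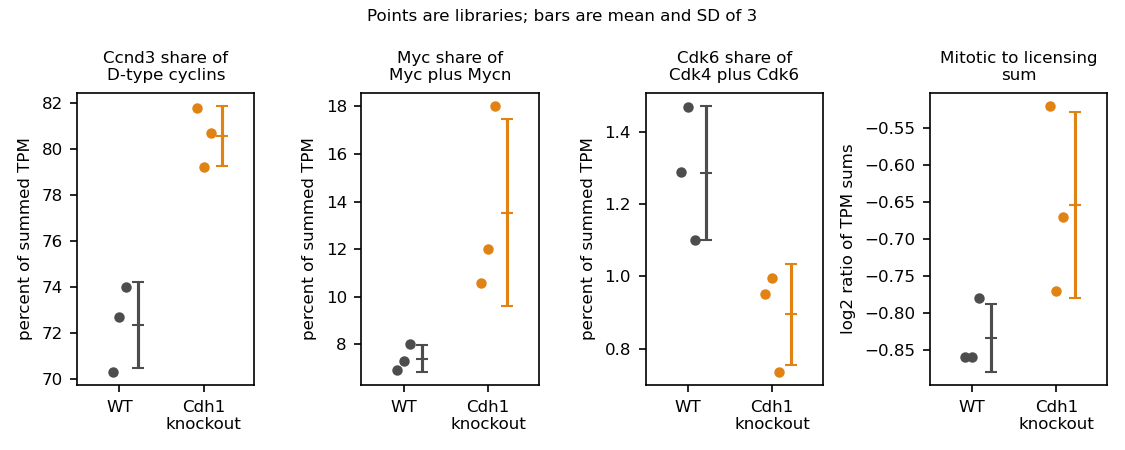
Shares of TPM and the log2 ratio of TPM sums for each library (points), with mean and SD of 3 beside them. Axes do not start at 0. The WT and knockout libraries are apart in all 4 panels, by least for the mitotic to licensing ratio, where WT replicate C is at -0.78 and knockout replicate B at -0.77.

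Replication licensing loads the ring of Mcm2 to Mcm7 onto origins with the help of Cdc6 and Cdt1. Of the 8 genes of this role 2 fell, Mcm3 and Mcm6, and 0 rose, and the median log2 fold change was -0.11. Their promoter windows are shown first, with that of Mcm5, which was not called, because the 3 share E2F core motifs (in capitals). Windows run from 250 bases before to 50 bases after the RefSeq start in GRCm38. Those of Mcm3 and Mcm6 are on the minus strand and that of Mcm5 is on the plus strand.
Mcm3, chr1:20820263-20820562: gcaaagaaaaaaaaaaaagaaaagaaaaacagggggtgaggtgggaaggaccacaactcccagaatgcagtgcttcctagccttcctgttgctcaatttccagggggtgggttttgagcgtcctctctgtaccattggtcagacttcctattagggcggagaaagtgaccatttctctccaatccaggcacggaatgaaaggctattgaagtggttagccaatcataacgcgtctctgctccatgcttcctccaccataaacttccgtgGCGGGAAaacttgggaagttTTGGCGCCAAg
Mcm6, chr1:128359656-128359955: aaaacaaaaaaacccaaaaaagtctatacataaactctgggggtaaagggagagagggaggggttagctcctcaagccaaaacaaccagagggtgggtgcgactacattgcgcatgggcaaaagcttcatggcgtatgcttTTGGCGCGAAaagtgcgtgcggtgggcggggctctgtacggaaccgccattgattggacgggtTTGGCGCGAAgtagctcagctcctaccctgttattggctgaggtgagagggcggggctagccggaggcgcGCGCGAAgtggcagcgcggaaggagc
Mcm5, chr8:75109259-75109558: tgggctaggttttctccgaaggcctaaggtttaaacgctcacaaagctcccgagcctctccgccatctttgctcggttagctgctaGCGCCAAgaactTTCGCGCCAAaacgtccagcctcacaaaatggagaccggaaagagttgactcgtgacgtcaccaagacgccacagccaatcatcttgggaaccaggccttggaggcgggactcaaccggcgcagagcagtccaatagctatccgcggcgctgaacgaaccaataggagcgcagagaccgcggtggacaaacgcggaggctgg

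Matches on the 2 strands can overlap, and each was counted. The window of Mcm3 held 3 matches in 2 stretches, that of Mcm6 held 5 in 3 stretches and that of Mcm5 held 3 in 2 stretches. Of the 7 licensing genes in the promoter table, 6 held such a match (85.7%), Mcm3, Mcm5, Mcm6, Mcm7, Cdc6 and Cdt1. It was held by 10.9% of all 27025 genes of that table. Mcm5, with the motif, had a log2 fold change of -0.04, so called and uncalled licensing genes both carried it. A match is a description of the letters and not a site of binding.

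Mcm3 (ENSMUSG00000041859.10, chromosome 1, 20802968 to 20820312, minus strand) was counted at 590 CPM, 586 CPM and 588 CPM in WT and at 421 CPM, 474 CPM and 432 CPM in the knockout. The WT libraries were nearly equal, and all knockout libraries lay under them. The log2 fold change was -0.41 (standard error 0.08, 95% interval -0.58 to -0.24, adjusted p 0.00294). Mcm6 (ENSMUSG00000026355.11, chromosome 1, 128331590 to 128359664, minus strand) was at 522 CPM, 547 CPM and 497 CPM in WT and at 391 CPM, 438 CPM and 396 CPM in the knockout. Its groups were also apart, with a log2 fold change of -0.35 (standard error 0.08, 95% interval -0.53 to -0.18, adjusted p 0.00991), and it was not called without WT replicate B (adjusted p 0.0596) or without knockout replicate C (0.0553).

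Both genes lie on chromosome 1, where 27.8% of the tested genes were called lower and 1.80% higher. With the medians of chromosomes 1 and 14 removed, the log2 fold change was -0.12 for Mcm3 (adjusted p 0.399) and -0.06 for Mcm6 (adjusted p 0.712). The 4 other subunits of the ring had log2 fold changes from -0.15 to 0.01 with 95% intervals within -0.35 and 0.21, and 0 of them were called. In WT, Mcm3 was the most abundant subunit at 488 ± 14.6 TPM, above Mcm5 at 427 ± 19.2 TPM and Mcm2 at 399 ± 16.7 TPM. In the knockout Mcm5 was at 404 ± 31.7 TPM and Mcm3 at 358 ± 22.8 TPM, next to Mcm7 at 364 ± 42.2 TPM and Mcm2 at 350 ± 39.7 TPM, and the last 3 of these differed by less than their SD.

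Cdc6, a loader of the ring, had a log2 fold change of -0.13 (-0.35 to 0.09). Cdt1, the other loader, had 0.15 (-0.04 to 0.34), at 236 CPM, 240 CPM and 228 CPM in WT and at 268 CPM, 282 CPM and 233 CPM in the knockout. Knockout replicate C lay within the WT range. By library, the licensing genes had a median log2 difference from the WT mean that was lowest in knockout replicate A (-0.26) and higher in C (-0.11) and B (0.01).

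**Figure D4:**
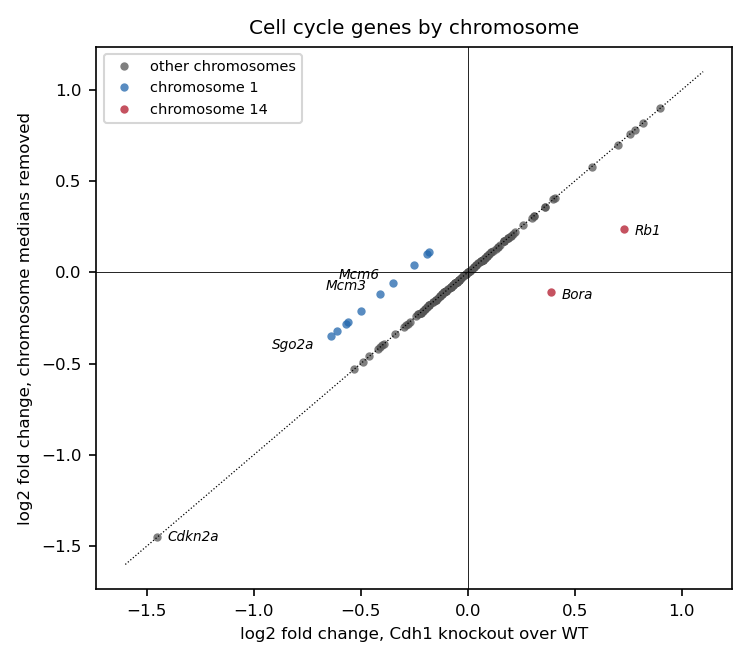
Log2 fold change (knockout over WT) of the 42 genes and the wider cell cycle lists, as fitted (x axis) and after the medians of chromosomes 1 and 14 were removed (y axis). Genes of other chromosomes lie on the dotted line of equality. Rb1 moves from 0.73 to 0.24, Mcm3 from -0.41 to -0.12 and Mcm6 from -0.35 to -0.06.

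Mitosis is driven by Cdk1 with B-type cyclins, and Ccna2 serves S phase and mitotic entry. None of the 4 genes of this role was called. Ccnb1 was at 380 CPM, 364 CPM and 391 CPM in WT and at 382 CPM, 375 CPM and 378 CPM in the knockout. The knockout libraries all lay inside the WT range, and the 95% interval of the log2 fold change ran from -0.17 to 0.16. Ccna2 had -0.01 (-0.18 to 0.16) and Cdk1 0.09 (-0.10 to 0.28). Ccnb2 was at 157 CPM, 141 CPM and 156 CPM in WT and at 184 CPM, 166 CPM and 159 CPM in the knockout. Its groups did not overlap, though the gap was small, and the log2 fold change of 0.17 (-0.02 to 0.35) was not called (adjusted p 0.253).

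The mitotic kinases and checkpoint genes act from spindle assembly to the onset of anaphase. Many genes of this phase carry the cell cycle homology region (CHR, TTTGAA on either strand), shown in capitals in the windows of Plk1, on the plus strand, and Cdc20, on the minus strand. They are shown to set this promoter type beside that of the licensing genes.
Plk1, chr7:122159185-122159484: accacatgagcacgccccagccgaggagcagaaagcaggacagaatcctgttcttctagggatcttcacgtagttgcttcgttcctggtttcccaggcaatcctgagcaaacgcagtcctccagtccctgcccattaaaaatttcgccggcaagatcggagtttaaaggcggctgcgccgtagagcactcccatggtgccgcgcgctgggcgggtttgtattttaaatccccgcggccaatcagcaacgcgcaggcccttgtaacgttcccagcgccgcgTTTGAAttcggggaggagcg
Cdc20, chr4:118437294-118437593: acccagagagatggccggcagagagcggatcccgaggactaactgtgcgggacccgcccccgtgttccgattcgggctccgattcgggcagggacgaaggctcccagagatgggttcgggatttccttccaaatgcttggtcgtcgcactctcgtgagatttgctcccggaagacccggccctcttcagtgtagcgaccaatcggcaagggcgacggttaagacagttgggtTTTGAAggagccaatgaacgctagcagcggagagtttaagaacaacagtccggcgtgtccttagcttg

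Of the 8 genes of this role in the promoter table, 6 held a CHR (75%), against 20.2% of all genes of the table, and 0 held an E2F core. Among the 7 licensing genes, 1 held a CHR (14.3%), Mcm2. Of the 3 S and M phase genes in the table, 2 held an E2F core (Ccnb1 and Cdk1) and 2 a CHR (Ccnb2 and Cdk1). In a shorter window, from 100 bases before the start, 57.1% of the licensing genes held an E2F core. There 75% of the mitotic genes held a CHR. The CCAAT box (CCAAT, either strand) was found in 7 of the 8 mitotic genes, 5 of the 7 licensing genes and 41.1% of all genes. The E-box (CACGTG), which Myc proteins bind, was found in 5 of the 33 genes matched to the table (Cdk4, Cdk6, Cdkn2c, E2f3 and Ttk), or 15.2%, against 8.09% of all genes. The TCF/LEF core (CTTTGAT, either strand) was found in Cdk4 and Bub1b, 6.06% of the matched genes, against 4.29% of all genes. Only 15 of the 21 G1 regulators were matched. A G1 gene not named here, Ccnd1 and Myc included, may therefore not have been searched.

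**Figure D5:**
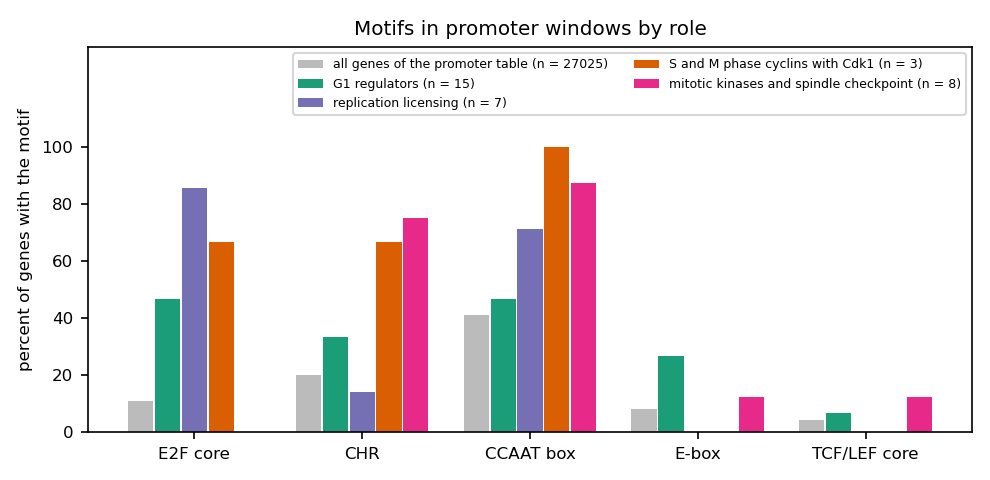
Percent of genes with each motif in the window from 250 bases before to 50 bases after a RefSeq start, by role, beside all 27025 genes of the promoter table. E2F cores are in 85.7% of licensing genes and 0% of mitotic genes, and the CHR is in 14.3% and 75% of them.

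None of the 9 mitotic kinase and checkpoint genes was called, and their log2 fold changes ran from -0.11 to 0.20 with 95% intervals within -0.30 and 0.43. Cdc20, the activator of the anaphase-promoting complex, had the highest value. It was at 235 CPM, 194 CPM and 264 CPM in WT and at 244 CPM, 267 CPM and 284 CPM in the knockout. WT replicate C lay above knockout replicate A and under knockout replicates B and C. Its log2 fold change was 0.20 (-0.03 to 0.43, adjusted p 0.263). Bub3, a checkpoint protein at kinetochores, had the lowest value. It was at 119 CPM, 110 CPM and 124 CPM in WT and at 107 CPM, 106 CPM and 112 CPM in the knockout, with a log2 fold change of -0.11 (-0.30 to 0.07), and the groups overlapped.

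The kinases of this role all had intervals that span 0. Aurka, which matures spindle poles, had a log2 fold change of -0.02 (-0.20 to 0.15) and Plk1 one of -0.03 (-0.24 to 0.17). Aurkb, the kinase that corrects kinetochore attachments, had 0.06 (-0.18 to 0.30), and Ttk, which starts checkpoint signalling, had 0.03 (-0.22 to 0.29). In both, knockout replicate A was the highest of the 6 libraries, at 101 CPM and 215 CPM. The checkpoint kinase Bub1 had -0.10 (-0.28 to 0.09), and Mad2l1, which binds Cdc20, had -0.04 (-0.25 to 0.18). Bub1b, which also binds Cdc20, was at 316 CPM to 335 CPM in WT and at 345 CPM to 358 CPM in the knockout, without overlap, with a log2 fold change of 0.09 (-0.07 to 0.26) that was not called (adjusted p 0.489).

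The summed mitotic genes were set against the summed licensing genes within each library. The log2 ratio of their TPM sums was -0.86, -0.86 and -0.78 in WT and -0.52, -0.77 and -0.67 in the knockout (exact permutation p = 0.1, the smallest possible, n = 3). With Mcm3 and Mcm6 of chromosome 1 left out of the licensing sum, an alternative chosen after the data were seen, it was -0.33, -0.30 and -0.25 in WT and -0.07, -0.33 and -0.24 in the knockout. The groups then overlapped and the difference fell from 0.18 to 0.08 (exact permutation p = 0.5).

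Outside the 42 genes, 127 further cell cycle genes in 4 lists were read from the same fit. Of these 18 were called (14.2%), 9 higher and 9 lower, close to the 13.3% of all tested genes. Among the 32 other G1 and G2 regulators 4 were higher and 2 lower. The inhibitor Cdkn1c was at 13.8 ± 0.704 CPM in WT and rose by 0.90 on the log2 scale to reach 25.7 ± 5.48 CPM (adjusted p 0.00139). Gm44732 on the opposite strand covers 30.3% of its exon bases. The inhibitor Cdkn1a was at 36.2 ± 2.1 CPM in WT and rose by 0.58 on the log2 scale to reach 54.2 ± 5.71 CPM (adjusted p 0.00223). Mybl2, a factor of late cell cycle genes, rose by 0.41 on the log2 scale (adjusted p 0.0256). Of the genes that encode its partners, Lin9 fell by 0.50 (adjusted p 0.0130) and Lin52 by 0.49 (adjusted p 0.0420) on the log2 scale, while Lin37 (0.04, adjusted p 0.904) and Lin54 (-0.07, adjusted p 0.783) were not called. Mybl2 and Lin52 were each called in 2 of the 6 fits that left out a library, and Lin9 in 3. With the medians of chromosomes 1 and 14 removed the adjusted p was 0.0519 for Lin52 and 0.316 for Lin9. Calls of this list ranged from 2 to 7 over the fits that left out a library, with 2 without WT replicate A or knockout replicate C and 3 without WT replicate B.

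Among the 40 genes of origin recognition and the replisome 2 rose and 2 fell. Orc2 and Orc5, subunits of the complex that marks origins, fell by 0.61 (adjusted p 0.000256) and 0.46 (adjusted p 0.00671) on the log2 scale. Gins2, part of the active helicase, and Rrm2, a subunit of ribonucleotide reductase, rose with log2 fold changes of 0.40 and 0.30. Genes of the opposite strand cover 70.7% of the exon bases of Gins2 (Gse1) and 24.0% of those of Orc2 (Nif3l1). Without WT replicate A this list had 2 calls.

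Among 35 kinetochore and chromosomal passenger genes 2 rose (Bora and Cenph) and 4 fell. Cenph was called in 1 of the 6 fits that left out a library, and Bora in 5. Sgo2a, which protects cohesion at centromeres, fell by 0.64 on the log2 scale (adjusted p 0.000403), and the kinetochore genes Nsl1 and Cenpf fell by 0.57 and 0.56. Sgo2a, Nsl1 and Cenpf, with Orc2 and Lin9, are the 5 called of 8 genes of these lists on chromosome 1. All 8 had log2 fold changes from -0.64 to -0.18. Of all 1002 tested genes of chromosome 1, 27.8% were called lower and 826 had a negative log2 fold change, with a median of -0.33. With the chromosome medians removed, Sgo2a (-0.35, adjusted p 0.0317) and Orc2 (-0.32, adjusted p 0.0301) were called, and Nsl1, Cenpf and Lin9 were not. Without WT replicate A 3 kinetochore genes were called. Bora, an activator of Aurka, is the gene of these lists on chromosome 14, and it moved from 0.39 to -0.11 in that fit.

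Among 20 genes of the anaphase-promoting complex and its regulators, Pttg1, the securin that holds back sister separation, rose by 0.36 (adjusted p 0.0240) and the subunit Anapc16 fell by 0.42 on the log2 scale (adjusted p 0.0264). This list had 0 calls without WT replicate A or B, and 1 call without WT replicate C or without knockout replicate B or C. Outside chromosomes 1 and 14, 10.3% of the 39 genes of the main list and 10.2% of the 118 genes of the wider lists were called, against 10.8% of all tested genes there.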

How the data were processed

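Total RNA of 3 WT and 3 Cdh1 knockout libraries was extracted with TRIzol and made into strand-specific libraries, per the labels' protocols. The authors deposited raw counts per gene, whole numbers without normalization, with exon coordinates and exon lengths. The submitters' processing notes name cutadapt 2.10, STAR 2.7.5b, featureCounts 2.0.1 and GRCm38, and settings such as strand are not given in the sources used here. Among counts from 1 to 10, between 78.1% and 83.1% were even, which can arise when both mates of a pair are counted, so the floor was set at 6 counts (0.262 CPM to 0.332 CPM in a library). It covers counting error only.

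Symbols came from the GENCODE name table (55141 of 55401 genes), and all 42 symbols matched 1 gene each. Promoter sequences came from RefSeq (GRCm38.p6), where 33 of the 42 genes were matched. Genes were filtered with filterByExpr (17325 of 32417 kept), scaled by TMM and tested with edgeR 4.0.16 (glmQLFit, glmQLFTest) in R 4.3.3, with genotype as the only term. Standard errors and 95% intervals came from the F statistic. TPM used the deposited exon lengths. Ratios within libraries were compared by two-sided exact permutation tests in scipy 1.17.1.

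The alternatives were RLE, upper quartile and library totals, 2 other filters, limma-voom (limma 3.58.1), DESeq2 1.42.0, an adjusted p of 0.01, the replicate letter as a block, leaving out each library, removing each library's medians of chromosomes 1 and 14 through offsets, and counts divided by 2. The procedure was tested on 8 sets of simulated data. The genes and lists were chosen with earlier results of these data known. The rule named every gene of the main list, with values per library for called genes and the highest and lowest of each role, and up to 3 called genes in each direction of each wider list. Further genes were given values after these were seen.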

Additional observations from a re-analysis of the deposited data

How the results depend on the processing

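Of the 7 called genes, Ccnd3, E2f2 and Cdkn2a were called in all 17 alternatives. With the medians of chromosomes 1 and 14 removed 4 of the 42 were called (Ccnd3, E2f2, Cdkn2a and Cdk6), against 9.87% of all tested genes in that fit, and 2 kinetochore genes. The remaining alternatives gave between 5 and 9 calls, with 9 without knockout replicate A. An adjusted p of 0.01 gave 1242 of all genes, 2 other G1 and G2 regulators and 0 genes of the anaphase-promoting complex list, which had 1 without a filter. Leaving out a library gave 1374 to 2784 of all genes, 2 to 7 of the other G1 and G2 regulators, 2 to 4 replisome genes, 3 to 5 kinetochore genes and 0 to 2 of the anaphase-promoting complex list. It gave medians from 0.03 to 0.10 for the S and M phase genes and from -0.05 to 0.03 for the mitotic genes. With CPM in place of TPM, which leaves gene length in, the differences in share were -3.97 percentage points for Ccnd2, 10.9 for Ccnd3 and -1.99 for Cdk6. With Mcm3 and Mcm6 left out, the mitotic to licensing difference was 0.08. The cause of these shifts was not tested. Among genes called under neither setting, 13 changed sign in 36 comparisons.

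Correlations did not show that the replicate letters pair the libraries. Deviations of same-lettered libraries correlated at 0.165, -0.149 and 0.396, and those of different letters at -0.394 to 0.261. Some low markers were shared by the A libraries. Apoa1 was at 6.08 CPM in WT A and 5.97 CPM in knockout A, and at most 0.900 CPM elsewhere. Ttr was at 3.15 CPM and 1.38 CPM in them, and at most 0.101 CPM elsewhere. The neural sum was highest in A in WT (207 CPM) and lowest in A in the knockout (127 CPM). Whether the A libraries share a source was not tested. With the replicate block 8 of the 42 genes were called, Myc included (adjusted p 0.0303). Over all genes that fit called 2686, against 2307 in the main fit. Depth limits Cdkn2b most, at about 1 CPM.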
